A study of Caenorhabditis elegans with 9 samples.

Results

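The cuticle furrow collagen genes of *Caenorhabditis elegans* were examined in RNA-sequencing libraries from animals with normal, deleted and overexpressed *atf-4*, the gene of a bZIP transcription factor. The members are *dpy-2*, *dpy-3*, *dpy-7*, *dpy-8*, *dpy-9* and *dpy-10*. They were taken by name, from their known place in the furrows. All 6 are among the 14218 genes of the table used, and all 6 are among the 11287 genes tested, which reached a level of at least 5 ppm (a unit explained with the samples) in at least 1 library. Every member was above that limit in all 9 libraries.

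The cuticle is a layered extracellular matrix that the epidermis secretes anew before each moult, and collagens are its main protein. Furrows are the circumferential indentations between the annuli, and these collagens line them. Furrow collagen genes are transcribed in pulses early in the synthesis of each new cuticle, ahead of many other collagen genes. Loss of any member removes the furrows and makes the animal short and stout, which is the dumpy phenotype. It also switches on osmolyte, detoxification and antimicrobial peptide genes in the epidermis.

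There were 3 groups of 3 replicates each, and a replicate was a culture of about 20000 animals kept at 20 °C and harvested at the L4 stage. N2 served as WT. In *atf-4(tm4397)* *atf-4* carries a deletion, and ATF-4OE overexpresses the gene. All animals were fed the bacterium OP50. In ATF-4OE the integrated transgene *ldIs119* carries genomic *atf-4* under its own promoter, fused to GFP, together with *rol-6(su1006)*, a dominant allele of another cuticle collagen that makes animals roll. It is a single integrated line, so more ATF-4 and the altered ROL-6 collagen cannot be told apart in it. The strains carry no allele in common that the labels name. In whole animals, fewer epidermal cells and less RNA per epidermal cell cannot be told apart.

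The level of a gene is given in ppm, its read density per transcript length after scaling the summed density of all genes of that library to 1000000, so that levels of different genes can be set side by side. Depth, estimated from the steps between RPKM values, was 23.8 to 35.1 M reads per library. Read counts were not recovered, and the members' read numbers, from 2246 to 14869 per library, are estimates from that depth, at which counting error would be 2.11% of the lowest level. Library names are those of the deposited centred and scaled table. A second table of the same libraries, in RPKM, gives another genotype to 6 of the 9, and results under its names are stated where they differ. By the names used, *atf-4* was between 168 and 215 ppm in WT, against 3.69 to 9.31 ppm in the mutant and 4184 to 6845 ppm in ATF-4OE. *rol-6* was at 572 to 962 ppm in WT, 655 to 1379 ppm in the mutant and 3019 to 4448 ppm in ATF-4OE. Libraries within a genotype stood apart: WT replicate 1 carried 1.98 to 2.27 times the member levels of WT replicate 2 and 1.75 to 2.15 times those of WT replicate 3.

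The members lie at 5 places on 3 chromosomes of WBcel235, as Ensembl release 115 annotates them. *dpy-2* spans positions 6714292 to 6715971 of chromosome II on the plus strand, in 5 exons that encode 380 residues. *dpy-10* spans 6710149 to 6712227 of chromosome II on the minus strand, in 5 exons that encode 356 residues. Both are transcribed away from each other from starts 2065 bp apart, with 0 protein-coding genes annotated between. On chromosome X lie *dpy-3* (2144605 to 2145647, 2 exons, 302 residues), *dpy-8* (5148804 to 5150476, 4 exons, 452 residues) and *dpy-7* (7536467 to 7537792, 2 exons, 318 residues), all on the minus strand. *dpy-9* lies near the end of chromosome IV, at 257403 to 259204 on the minus strand, with 4 exons and 315 residues. Exons of *dpy-10* share 780 of 1593 bp with T14B4.19 on the same strand, and exons of *dpy-8* share 109 of 1513 bp with C31H2.14 on the other strand. C31H2.14 reached at most 1.05 RPKM, and T14B4.19 has no row in the tables used here. Strand cannot separate *dpy-10* from T14B4.19, and how the counting treated strand, which matters for *dpy-8*, is not given in the sources used here. Reads in these stretches thus cannot be assigned with certainty.

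*dpy-7* encodes the collagen most often used to mark the furrows. Its level in replicates 1, 2 and 3 was 335, 169 and 191 ppm in WT, 480.4, 322 and 429.7 ppm in *atf-4(tm4397)*, and 456, 373 and 364 ppm in ATF-4OE. All ATF-4OE libraries were above all WT libraries, whereas mutant replicate 2 was below WT replicate 1. DPY-3 and DPY-8 are collagens that DPY-7 needs to assemble into furrows. *dpy-3* was at 285, 131 and 133 ppm in WT, 430.3, 268 and 404 ppm in the mutant, and 344, 302 and 299 ppm in ATF-4OE, and again only the mutant overlapped WT, through replicate 2. *dpy-8* was at 316, 139 and 163 ppm in WT, 448, 289 and 466 ppm in the mutant, and 367, 309 and 301 ppm in ATF-4OE. For *dpy-8* both groups overlapped WT, since mutant replicate 2 and ATF-4OE replicates 2 and 3 were below WT replicate 1.

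DPY-2 and DPY-10 are required for the same furrow assembly, and particular alleles of *dpy-10* make animals roll. *dpy-2* was at 211, 107 and 112 ppm in WT, 318, 196 and 281 ppm in the mutant, and 270.3, 222 and 196 ppm in ATF-4OE. WT replicate 1 was above mutant replicate 2 and above ATF-4OE replicate 3, so that both groups overlapped WT. *dpy-10* was at 188, 86.9 and 107 ppm in WT, 272, 186 and 270.0 ppm in the mutant, and 245, 197 and 196 ppm in ATF-4OE, where the ATF-4OE and WT libraries did not overlap. *dpy-9*, whose loss also removes the furrows, was at 226, 112 and 121 ppm in WT, 342, 216 and 274 ppm in the mutant, and 301, 279.8 and 228 ppm in ATF-4OE. The lowest ATF-4OE library for *dpy-9* was just above the highest WT library, and mutant replicate 2 was below it.

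**Figure D1:**
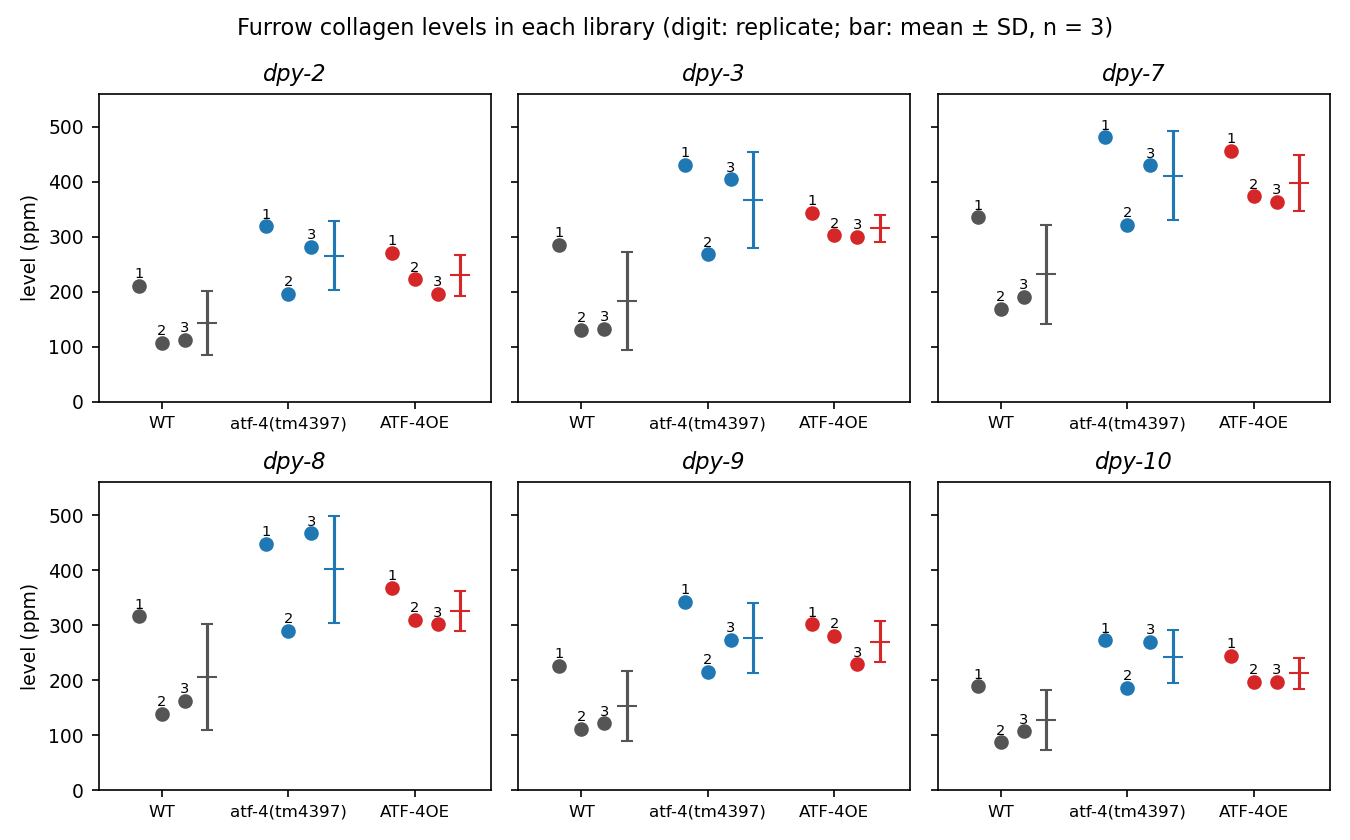
Level of each furrow collagen gene in ppm (vertical axis from 0) in the 3 libraries of each genotype; each point is a library marked with its replicate number, and the bar is the mean ± SD (n = 3). WT replicates 2 and 3 are the lowest libraries in every panel, WT replicate 1 reaches the lower part of the other groups, and *dpy-7* in mutant replicate 1 is the highest value at 480.4 ppm.

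The same libraries were high and low for all members. WT replicate 2 was the lowest of the 9 for all 6, and mutant replicate 1 the highest for 5, the exception being *dpy-8*, which peaked in mutant replicate 3. The highest level was 2.84 to 3.35 times the lowest. Spread within a genotype was widest in WT, with an SD of 0.52 to 0.64 on the log2 scale, against 0.30 to 0.38 in the mutant and 0.11 to 0.23 in ATF-4OE. The summed level of the 6 genes was 1561, 744 and 827 ppm in WT, 2291, 1476.5 and 2125 ppm in the mutant, and 1983, 1683 and 1585 ppm in ATF-4OE.

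In ATF-4OE all 6 furrow collagen genes were higher than in WT. The increase was similar among them, from 1.67-fold for *dpy-2* to 1.84-fold for *dpy-3* and *dpy-9*, and for none was the log2 fold change beyond 1. The comparison was fitted across all genes with limma on log2(level + 1), and a gene passed at a Benjamini-Hochberg adjusted p under 0.1 over all genes tested. Genes that passed as higher with a log2 fold change beyond 1 were 6.02% of all genes tested. By the adjusted p alone 22.1% of all genes passed as higher and 14.4% as lower, so passing was common among all genes. The log2 fold change was 0.84 ± 0.25 (SE, n = 3 and 3) for *dpy-7* with a limma adjusted p of 0.0355, 0.88 ± 0.27 for *dpy-9* with 0.0378, and 0.81 ± 0.27 for *dpy-10* with 0.0528. For *dpy-3* it was 0.88 ± 0.30 with a limma adjusted p of 0.0532, for *dpy-2* 0.74 ± 0.28 with 0.0759, and for *dpy-8* 0.75 ± 0.29 with 0.0889. The median over the members was 0.82, against 0.01 over all genes tested. For 4 of the 6 the ATF-4OE and WT libraries did not overlap, as was the case, in this direction, for 25.1% of all genes. All 6 were higher in ATF-4OE than in WT in 3 of 3 replicate pairs, as were 31.5% of all genes.

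These calls depended on single libraries. Without WT replicate 3 or without ATF-4OE replicate 1, 0 of the 6 passed, without WT replicate 2 only *dpy-7* passed, and without ATF-4OE replicate 3 only 3 passed. Of all genes tested, 15.6% passed as higher without WT replicate 3, 13.8% without ATF-4OE replicate 1, 21.1% without WT replicate 2 and 16.97% without ATF-4OE replicate 3. Leaving out WT replicate 1 had the opposite effect. All 6 then passed, at log2 fold changes of 1.05 to 1.25 and limma adjusted p of 0.0061 to 0.0141. In that setting 2028 of 11268 genes passed as higher. That no member was beyond 1 thus also depended on WT replicate 1. Under the genotypes of the RPKM table none passed and the log2 fold changes were -0.72 to -0.60. By those genotypes *atf-4* itself was at only 0.11 and *rol-6* at -0.19, where the names used gave 4.78 and 2.44. The genotypes of the RPKM table thus do not set the overexpressor apart by the genes its transgene carries.

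In *atf-4(tm4397)* none of the 6 passed against WT, although their mean levels were as far above WT as in ATF-4OE or further. Among all genes tested 0.0354% passed as higher and 0.0177% as lower. The log2 fold changes ran from 0.87 for *dpy-7* to 1.07 for *dpy-3*, with standard errors of 0.25 to 0.30, and their median was 0.96 against 0.02 over all genes tested. All 6 had an unadjusted limma p under 0.05, from 0.00520 to 0.00820, as had 10.4% of all genes in either direction, and the limma adjusted p was 0.461 for each. For every member, mutant replicates 1 and 3 were above the highest WT library and mutant replicate 2 was below it, so that 0 of the 6 had groups that did not overlap, against 6.07% of all genes with the mutant higher. Within replicates, whose strains were cultured in parallel, all 6 members were higher in the mutant than in WT in 3 of 3 pairs, as were 12.7% of all genes tested. With mutant replicates 2 and 3 exchanged, as another deposited table numbers them, all 6 were again higher in 3 of 3 pairs, as were 18.1% of all genes. With the replicate as a block none passed under either numbering, at limma adjusted p of 0.610 and 0.418. Without WT replicate 1 all 6 passed, at log2 fold changes of 1.17 to 1.44 and limma adjusted p of 0.0575 to 0.0904, as did 0.417% of all genes as higher. The comparison shares its WT libraries with that of ATF-4OE. Under the genotypes of the RPKM table the log2 fold changes were -0.49 to -0.46, and none passed.

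Between ATF-4OE and *atf-4(tm4397)* none of the 6 passed either, where 19.8% of all genes passed as higher in ATF-4OE and 13.8% as lower. The log2 fold change was nearest to 0 for *dpy-9*, at -0.02 with a 95% interval of -0.63 to 0.58, and farthest from it for *dpy-8*, at -0.27 with an interval of -0.94 to 0.39. For *dpy-7* the interval was -0.60 to 0.53, for *dpy-10* -0.79 to 0.43, for *dpy-2* -0.81 to 0.43 and for *dpy-3* -0.86 to 0.47. Limma adjusted p ranged from 0.541 to 0.962. Every interval reached down to -0.60 or lower and up to 0.39 or higher, so differences of that size in either direction lie within all 6 intervals.

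**Figure D2:**
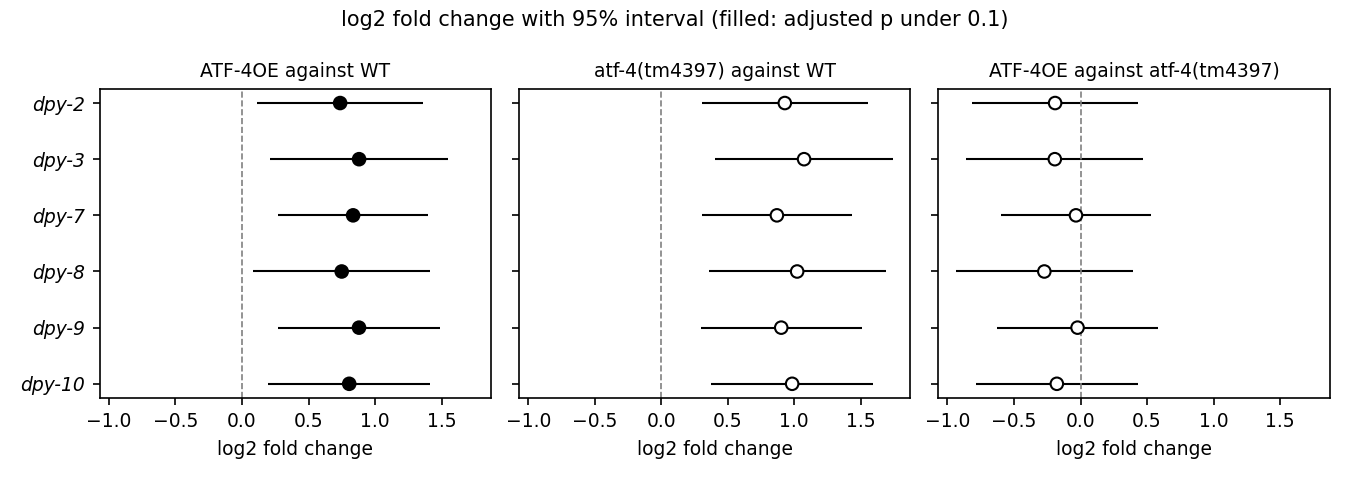
log2 fold change of each furrow collagen gene in the 3 comparisons (horizontal axis); points are limma estimates, lines their 95% intervals, and filled points passed at an adjusted p under 0.1. All 6 are filled in ATF-4OE against WT, at 0.74 to 0.88, and none in the other panels, where estimates lie at 0.87 to 1.07 and at -0.27 to -0.02.

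The ratios between members varied much less than their levels. Ranked by mean level, they stood in the order *dpy-7* (347 ppm), *dpy-8* (311 ppm), *dpy-3* (288 ppm), *dpy-9* (233 ppm), *dpy-2* (213 ppm) and *dpy-10* (194 ppm), at ranks 424 to 745 of 14218 genes. Of the 15 pairs, 13 kept their order in all 9 libraries. The exceptions were neighbours in level: *dpy-9* was above *dpy-2* in 8 of 9 libraries and *dpy-7* above *dpy-8* in 8 of 9. The steadiest pair was *dpy-8* and *dpy-10*, on different chromosomes, whose ratio stayed between 1.501 and 1.73 with an SD of 0.07 on the log2 scale. The least steady was *dpy-8* and *dpy-9*, with an SD of 0.17 and a ratio of 1.11 to 1.70. The neighbours *dpy-2* and *dpy-10* had a ratio of 1.001 to 1.23 with an SD of 0.09, within the range of the pairs that lie on different chromosomes. In comparison, the mean of the members had an SD of 0.57 over the 9 libraries.

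Few other genes lay as near to the members' mean profile as the members that make it up. When each gene's log2 level was centred on its mean over the 9 libraries, the members lay within a root mean square distance of 0.051 to 0.088 of their own mean profile, to which each contributes, whereas the median distance of the other genes tested was 0.593. The nearest other gene was *col-46*, at 0.074, and it was the only other gene within the distance of the farthest member. It encodes a further cuticle collagen and was at 37.2, 17.4 and 21.1 ppm in WT, 49.4, 34.6 and 50.8 ppm in the mutant, and 50.6, 40.8 and 39.4 ppm in ATF-4OE, so that it was lowest in WT replicate 2 like the members. Next came *col-128*, another collagen gene, at a distance of 0.107. It was followed by *lpr-6* at 0.112, *lpr-4* at 0.118 and *lpr-3* at 0.121, which encode lipocalin-related proteins. LPR-3 is a component of the transient precuticle matrix that precedes the cuticle. From there the distance rose gradually, to 0.194 for the gene at rank 20. Also within that rank were *noah-2* at 0.125, *sym-1* at 0.173 and *noah-1* at 0.176, of the list of moulting and precuticle genes, so the course was not particular to the members. These distances rest on 9 libraries and share their depth and scaling.

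**Figure D3:**
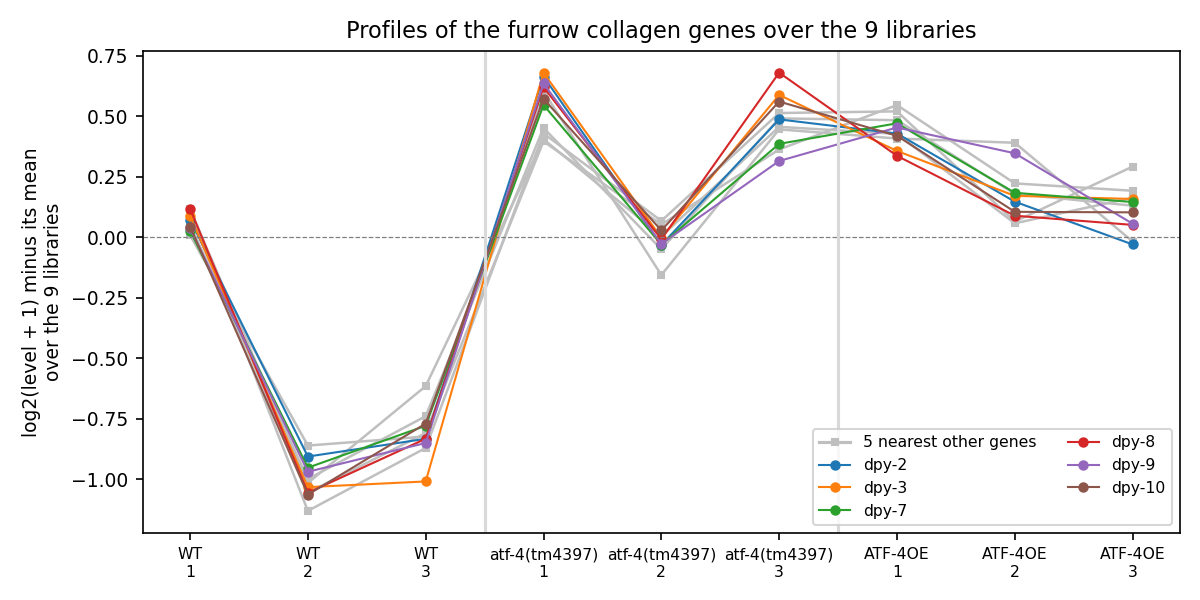
log2(level + 1) of the 6 furrow collagen genes (colours) and the 5 nearest other genes (grey), each minus its own mean over the 9 libraries (vertical axis), in the 9 libraries (horizontal axis, genotype and replicate). The mean of the members falls to -0.997 in WT replicate 2 and -0.85 in WT replicate 3 and is highest in *atf-4(tm4397)* replicate 1, at 0.62.

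Other collagens that shape the body but are not in the furrows were read beside the members. Of 12 listed, 11 were tested, and in ATF-4OE against WT 0 passed as higher and 1 as lower, with a median log2 fold change of -0.01. The gene that fell was *lon-3*, whose collagen limits body length, by 1.03 ± 0.19 on the log2 scale (limma adjusted p = 0.00487). BLI-1 and BLI-2, collagens of the struts of the adult cuticle, spread widely among libraries. *bli-1* was at 280, 18.2 and 217 ppm in WT, 83.3, 328 and 0.818 ppm in the mutant, and 3.71, 19.7 and 22.6 ppm in ATF-4OE, and did not pass (log2 fold change -2.999 ± 1.77). *bli-2* was at 607, 38.9 and 684 ppm in WT, 200.2, 604 and 10.0 ppm in the mutant, and 11.8, 64.7 and 48.5 ppm in ATF-4OE, and did not pass either (-2.88 ± 1.52). Both were low in WT replicate 2, in mutant replicate 3 and in all ATF-4OE libraries. Without mutant replicate 3 both passed as lower in ATF-4OE (limma adjusted p = 0.0642 for *bli-1* and 0.0790 for *bli-2*). Both also passed with only the ATF-4OE and WT libraries in the model (0.0691 and 0.0904) and with library weights (0.0515 and 0.0323), and *bli-2* passed without WT replicate 2 (0.0648). In the mutant against WT, 54.2% of all genes tested had an estimate above 0, and 10.4% had an unadjusted limma p under 0.05 in either direction. None of the 11 shape genes passed there, while 9 estimates were above 0 and 6 of these had an unadjusted limma p under 0.05. Their median log2 fold change was 0.46 over the 11. The largest was that of *dpy-17*, named after its value was seen, at 1.19 ± 0.24. Whether the shape list differed from the members was not tested.

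In ATF-4OE, genes that modify and cross-link collagen had a median log2 fold change between those of the furrow and the other shape collagens. Where 22.1% of all genes passed as higher in ATF-4OE than in WT and 14.4% as lower, 6 of the 11 genes tested passed as higher and 0 as lower. The median log2 fold change of the 11 was 0.46. Among them *bli-4*, the proprotein convertase that trims collagens, rose by 0.46 ± 0.13 (limma adjusted p = 0.0256). Also higher were *doxa-1* and *tsp-15*, partners of the dual oxidase that cross-links tyrosines in the cuticle, by 0.71 ± 0.20 and 0.74 ± 0.21. Without WT replicate 3 or without ATF-4OE replicate 1 only 1 of the 11 passed, where 15.6% and 13.8% of all genes passed as higher. In the mutant 0 of 11 passed and the median was 0.22, below the 0.96 of the furrow and the 0.46 of the other shape collagens. Differences between these lists were not tested.

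Of 23 genes of the moulting cycle and the precuticle, 9 passed as higher in ATF-4OE and 0 as lower, with a median of 0.45. Of all genes 22.1% passed as higher and 14.4% as lower. *grh-1*, a Grainyhead transcription factor of the moulting cycle, rose by 0.85 ± 0.21 (limma adjusted p = 0.0156). The increase was 0.99 ± 0.24 for *nhr-23*, the nuclear receptor that drives each moult, and 0.94 ± 0.27 for *let-653*, a zona pellucida protein of the precuticle. The count was 5 without WT replicate 2, 3 without WT replicate 3, 2 without ATF-4OE replicate 1 and 3 without ATF-4OE replicate 3. Of all genes 21.1%, 15.6%, 13.8% and 16.97% passed as higher in these settings, in this order. In the mutant 0 passed, or 4 without WT replicate 1, where 0.417% of all genes passed as higher. All 23 estimates were above 0 in the mutant, as were 54.2% of all genes tested, and the median of the list was 0.57. The summed level of this list was 2649 to 3991 ppm in WT, 4308 to 6069 ppm in the mutant and 3570 to 5057 ppm in ATF-4OE, so that the mutant and WT sums did not overlap. Such a sum is weighted to its high genes. Taken singly, 6.07% of all genes tested did not overlap, with the mutant higher.

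**Figure D4:**
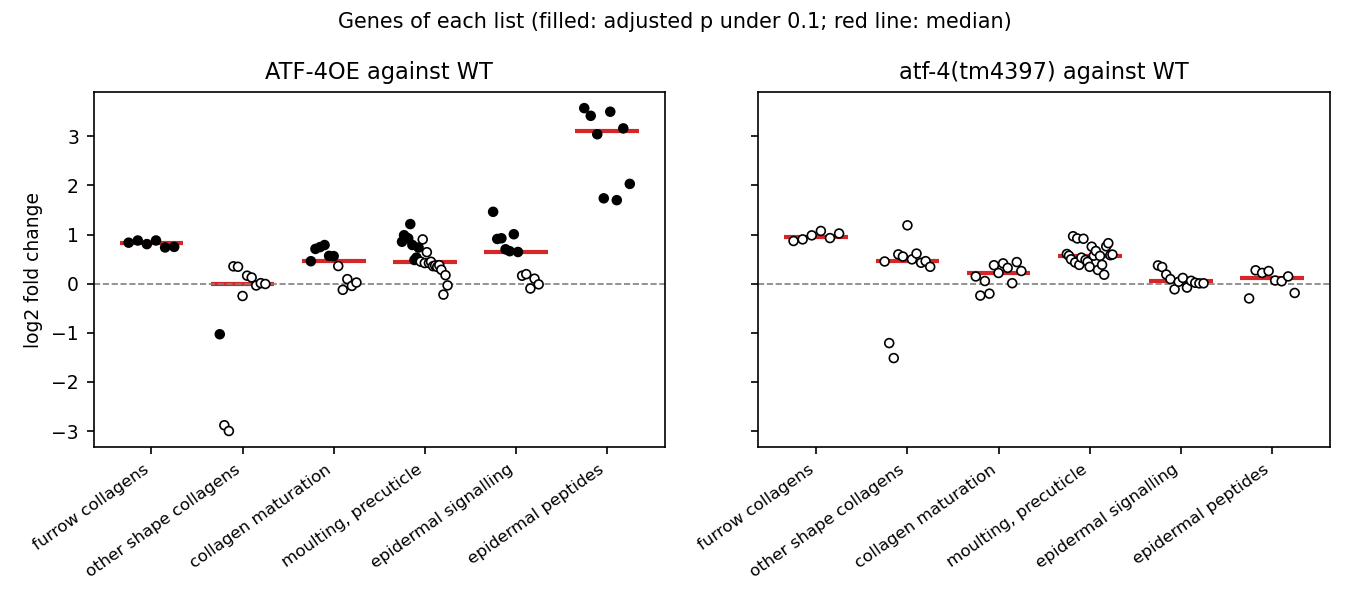
log2 fold change (vertical axis) of the genes of 6 lists in ATF-4OE against WT (left) and *atf-4(tm4397)* against WT (right); each point is a gene, filled where its adjusted p was under 0.1, and the red line is the median of the list. In ATF-4OE the medians are 0.82 for the furrow collagens, -0.01 for the other shape collagens and 3.10 for the epidermal peptides, and no point is filled for the mutant.

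Loss of furrow collagens is known to raise osmolyte, detoxification and antimicrobial peptide genes of the epidermis, and these were read beside the members. Epidermal antimicrobial peptide genes passed as higher in ATF-4OE for 8 of the 8 tested, with a median log2 fold change of 3.10, the first by adjusted p being *nlp-34* at 3.57 ± 0.17, *nlp-29* at 3.42 ± 0.18 and *cnc-2* at 3.04 ± 0.23. Their summed level was 162 to 205 ppm in WT, 195 to 208 ppm in the mutant and 1272 to 1503 ppm in ATF-4OE. *cnc-2* reached the limit of 5 ppm only in ATF-4OE, at 20.4 to 35.7 ppm, against at most 2.85 ppm in WT and 4.05 ppm in the mutant. It was thus tested only through the group where it is high. Of all genes 22.1% passed as higher in ATF-4OE. Of 12 genes of the signalling that controls these peptides, 7 passed as higher and 0 as lower, with a median of 0.65. Among the 7, *snf-12* likewise reached 5 ppm only in ATF-4OE. The transcription factor gene *sta-2* rose by 1.46 ± 0.16, the bZIP gene *cebp-1* by 0.91 ± 0.14 and the G protein gene *gpa-12* by 0.92 ± 0.18. No osmolyte or detoxification gene passed as higher. Of 3 osmolyte genes the glycerol-3-phosphate dehydrogenase gene *gpdh-2* fell by 0.58 ± 0.11, while *gpdh-1*, at -0.30 ± 0.27, and *hmit-1.1*, at -0.11 ± 0.23, did not pass. Of 5 detoxification genes 3 fell, the glutathione S-transferase genes *gst-10* by 1.51 ± 0.25, *gst-7* by 0.51 ± 0.09 and *gst-4* by 0.71 ± 0.25, and *gst-4* did not pass without WT replicate 1, WT replicate 3, ATF-4OE replicate 1 or ATF-4OE replicate 3. The other detoxification genes, *nit-1* at 0.22 ± 0.14 and *gcs-1* at -0.15 ± 0.12, did not pass. In the mutant none of these genes passed, and the medians were 0.11 for the peptides, 0.05 for the signalling genes, -0.51 for the osmolyte genes and 0.18 for the detoxification genes.

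Markers of the tissues in the harvest were read in the same way. Of 7 general epidermis markers 2 passed as higher in ATF-4OE, where 22.1% of all genes did, and 0 as lower, with a median log2 fold change of 0.45, and their summed level was 229 to 362 ppm in WT, 242 to 460 ppm in the mutant and 256 to 441 ppm in ATF-4OE, so that all groups overlapped. Of 7 seam cell markers 5 reached the limit for testing, and 4 of these passed as higher, with a median of 1.08 over the 5. Summed over all 7, the level was 143 to 248 ppm in WT, 215 to 272 ppm in the mutant and 412 to 457 ppm in ATF-4OE. Most of the ATF-4OE sum was *grd-10* alone, at 296 to 334 ppm, against 79.2 to 144 ppm in WT and 64.4 to 141 ppm in the mutant. In ATF-4OE the members' median of 0.82 lay between those of the epidermis and seam lists, and nearer still to the 0.84 of neuron markers. In the mutant the members' median, 0.96, was above those of the epidermis and seam lists. Outside the epidermis, 6 of 6 neuron markers (median 0.84) and 4 of 6 muscle markers (median 0.49) passed as higher in ATF-4OE, and 5 of 6 intestine markers as lower (median -0.79). Of all genes 22.1% passed as higher and 14.4% as lower. Among the neuron markers, *unc-31* reached the limit of 5 ppm for testing only in ATF-4OE. Leaving out libraries in turn kept the count for neurons at 6 and moved that for muscle between 1, without ATF-4OE replicate 3, and 5, without ATF-4OE replicate 2. In the mutant none of these markers passed, and the medians were 0.25 for the epidermis, 0.34 for the seam, 0.02 for neurons, 0.30 for muscle and -0.29 for the intestine. The part of these markers in the members' levels was not tested.

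Sperm genes, which hermaphrodites switch on during L4, varied among replicates of the same genotype. The summed level of 7 sperm genes was 22.2, 8.61 and 54.9 ppm in WT, 11.5, 90.3 and 9.63 ppm in the mutant, and 8.97, 14.2 and 10.97 ppm in ATF-4OE. Germline markers summed to 152 to 176 ppm in WT, 126 to 410.2 ppm in the mutant and 98.0 to 105 ppm in ATF-4OE. Of the sperm genes 1 of 7 passed as lower in ATF-4OE and of the germline markers 0 of 6, and none passed in the mutant. Within the mutant, replicate 2 had the highest sperm sum, the highest *bli-1* level and the lowest level of all 6 members. Within WT, sperm genes were lowest in replicate 2, where the members were also lowest, so the libraries of the 2 genotypes were not in the same order. The part of harvest timing in the members' levels was not tested.

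**Figure D5:**
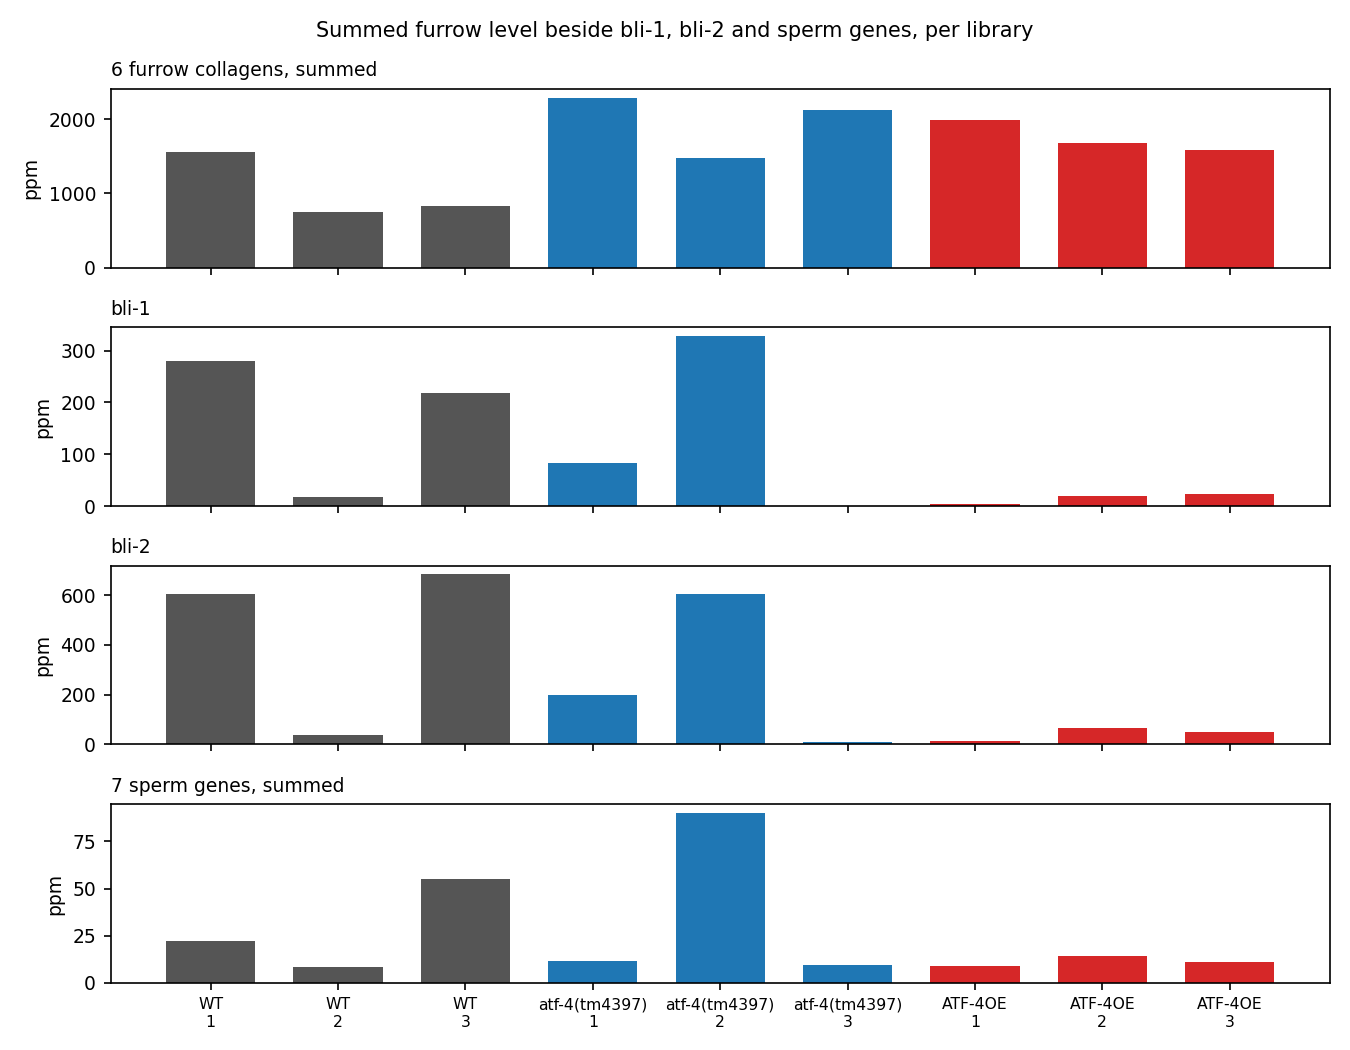
Level in ppm (vertical axes from 0) in each of the 9 libraries of the 6 furrow collagen genes summed, of *bli-1*, of *bli-2* and of 7 sperm genes summed, in WT (grey), *atf-4(tm4397)* (blue) and ATF-4OE (red). *bli-1* ranges from 0.818 to 328 ppm and sperm genes from 8.61 to 90.3 ppm, whereas the furrow sum stays between 744 and 2291 ppm.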

How the data were processed

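Poly(A) RNA of 9 samples was sequenced together as single reads. Alignment by the authors used STAR 2.4.0j and the WBcel235 genome, and featureCounts gave counts per gene. The authors state that genes of low count were discarded. They deposited RPKM values of 46748 genes and scores of 14218 genes. Scores are each library's RPKM centred on its mean and divided by its SD. A deposited table of 39 regulated genes holds scores too and served to compare column names. The lists of enriched terms, with their p-values, were not used here.

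Column names of the RPKM and the scaled tables give the same genotype to 3 of 9 libraries, matched by value, and the table of regulated genes gives the genotype of the scaled table to 9 of 9. The names of the scaled table were used. Its lowest value per library, where RPKM is 0, was set to 0 and the sum to 1000000 (ppm). Depth was read from steps between RPKM values. Of the values below 20 reads, 40.6 to 50.2% were whole within 0.02, so counts were not recovered and no count model was run.

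Levels were tested as log2(ppm + 1) with limma 3.58.1 (trend, two-sided, Benjamini-Hochberg over 11287 genes, all 9 libraries in 1 fit) in R 4.3.3. For 3 against 3 libraries an exact permutation test cannot go below p = 0.1. The members, gene lists and tests were chosen with earlier results of these data known, so no list is independent support. Named genes are the members, *atf-4* and *rol-6*, up to 3 genes per list with the smallest adjusted p in ATF-4OE against WT, and the 5 genes nearest in profile. T14B4.19 and C31H2.14 are named for their overlap with members. *dpy-17*, *nit-1*, *gcs-1*, *snf-12*, *unc-31*, *noah-1*, *noah-2* and *sym-1* were added after their values were seen. Lists covered other shape collagens, collagen maturation, moulting, peptides, their signalling, osmolytes, detoxification, and markers of epidermis, seam, muscle, intestine, neurons, sperm and germline. Gene positions came from Ensembl release 115. Tables were made with Python 3.11.15, pandas 2.3.3, numpy 2.4.6 and matplotlib 3.10.9.

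All 3 strains of a replicate were cultured in parallel, but the deposited tables exchange mutant replicates 2 and 3, so replicate numbers were not used as a block in the main model. Deviations from the genotype mean correlated across genes between WT and mutant libraries of the same number at 0.263, -0.683 and -0.622, and with mutant 2 and 3 exchanged at 0.263, 0.678 and 0.764. Between WT and ATF-4OE they correlated at -0.011, -0.278 and 0.178. Alternatives varied the pseudocount, filter, scaling, names, block, groups in the model, library weights and each library left out.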

Additional observations from a re-analysis of the deposited data

How the results depend on the processing

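The members' values against WT kept their direction under every alternative run except the names of the RPKM table, 228 of 228 values. Part of these values could not change. The filters, the replicate blocks, the 2-group model and leaving out a library of the genotype not compared leave these estimates as they are. By the names of the RPKM table the log2 fold change of *atf-4* itself was only 0.11 in ATF-4OE against WT. With those names ATF-4OE against WT gave 0 members and 0 genes passing, with log2 fold changes of -0.72 for *dpy-2*, -0.70 for *dpy-3*, -0.61 for *dpy-7*, -0.66 for *dpy-8*, -0.69 for *dpy-9* and -0.60 for *dpy-10*. The mutant against WT then gave -0.49 for *dpy-2*, -0.48 for *dpy-3*, -0.49 for *dpy-7*, -0.46 for *dpy-8*, -0.49 for *dpy-9* and -0.49 for *dpy-10* with 0 genes passing, and ATF-4OE against the mutant 0 genes. On the centred and scaled values themselves, where high levels dominate, 1 member (*dpy-7*) and 2122 of all genes passed in ATF-4OE against WT, where 4122 did on the log scale, and 1284 in ATF-4OE against the mutant, where 3790 did. There the difference between ATF-4OE and the mutant was 0.043 for *dpy-7* and 0.025 for *dpy-9*, above 0. Library weights also turned that difference, to 0.0175 for *dpy-2*, 0.0214 for *dpy-3*, 0.15 for *dpy-7*, 0.13 for *dpy-9* and 0.0229 for *dpy-10*. Median ratio scaling and library weights each left 4 members passing in ATF-4OE against WT, losing *dpy-2* and *dpy-8*. Of all genes, 2366 of 11219 passed as higher with that scaling and 3421 of 11287 with the weights. With only the 2 groups in the model, 3 genes passed in the mutant against WT, where 6 did with all 9 libraries in the model. A replicate block changed no member's call: all 6 passed in ATF-4OE against WT with limma adjusted p of 0.0134 to 0.0455, or 0.00987 to 0.0465 with mutant replicates 2 and 3 exchanged. Of 11287 genes, 2218 passed as higher with the block, or 2437 with the exchange. Leaving out each library in turn gave 0 to 6 members and 2556 to 4543 genes passing in ATF-4OE against WT, 0 to 6 members and 3 to 128 genes in the mutant against WT, and 2312 to 4182 genes in ATF-4OE against the mutant. Besides the libraries named in the report, leaving out ATF-4OE replicate 2 left 4 members and mutant replicate 1 left 5 in ATF-4OE against WT. In ATF-4OE against the mutant the range was -0.200 to 0.0888 for *dpy-7* and -0.190 to 0.1416 for *dpy-9*. Of the other lists, the 8 peptide genes passed in ATF-4OE against WT under every alternative except the names of the RPKM table, where no gene of any list passed. Apart from the values shown, the cause of these changes was not tested. At the estimated depth, counting error would be 2.11% of a member's level at the lowest read number.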

Other observations

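The level ratio of *dpy-7* to *dpy-8* was 1.06, 1.22 and 1.17 in WT replicates 1, 2 and 3, 1.07, 1.11 and 0.921 in *atf-4(tm4397)*, and 1.24, 1.21 and 1.21 in ATF-4OE. The mutant and ATF-4OE libraries did not overlap in this ratio, and WT spanned the space between. The ratio of *dpy-8* to *dpy-9* was 1.40, 1.25 and 1.34 in WT, 1.31, 1.34 and 1.70 in the mutant, and 1.22, 1.11 and 1.32 in ATF-4OE, with mutant replicate 3 the highest of the 9. These pairs were singled out after their values were seen, and no test was made.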
